A study of Mus musculus with 12 samples.

Results

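Chemokines and chemokine receptors were examined in the skin of AD and HF + AD mice. The genes were chosen by symbol alone, as the entries that begin with Ccl, Cxcl, Ccr or Cxcr directly followed by a digit, which gave 58 of the 23282 entries and 54 gene symbols. Of these symbols, 37 stand for ligands and 17 for receptors. Male wild-type C57BL/6J mice, obtained at 5 weeks of age, had AD-like lesions induced on the dorsal skin with 0.5% DNCB (2,4-dinitrochlorobenzene, a contact sensitizer) 3 times a week for 6 weeks, and this treatment was given to both groups. The 5 AD mice ate normal chow. The 7 HF + AD mice, labelled AD+OB, ate a diet with 60% of its energy from fat, starting 4 weeks before DNCB and going on through the 6 weeks of DNCB. All mice were fasted for 12 h before the skin was taken, and 1 library of mRNA 3′ ends (QuantSeq) was sequenced per mouse. No group without DNCB was analysed here, so that the values compare diets within lesional skin. Since whole skin was used, fewer cells of a type and less RNA per cell cannot be told apart.

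Chemokines are small secreted proteins that guide leukocytes along concentration gradients, and their receptors are G protein-coupled receptors on the migrating cells. CC and CXC ligands are named after the spacing of their first cysteines. In inflamed skin, keratinocytes, fibroblasts, endothelium and resident macrophages release chemokines, and the ligands released differ in the cells they attract: CXC ligands of the CXCR2 receptor draw neutrophils, ligands of CXCR3 draw T cells of the interferon type, and ligands of CCR2 draw monocytes. CCL27 from keratinocytes draws skin-homing T cells through CCR10.

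The promoters of 5 members are shown because the results turn on the groups they stand for: Cxcl2 for the neutrophil-attracting ligands, Cxcl9 and Cxcl10 for the interferon-inducible ligands, and Ccl27a and Ccl27b as near-identical copies whose reads could be confused. Each is the RefSeq sequence of GRCm38.p6 from 250 bases before to 50 bases after an annotated start, written in the direction of transcription. Capitals mark matches, on either strand, to the letters GGNNNTTCC (an NF-kB type motif) or GAAANNGAA (the core of the interferon-stimulated response element, ISRE). Cxcl2 lies on the plus strand (chr5:90903649-90903948), Cxcl9 on the minus strand (chr5:92328030-92328329), Cxcl10 on the minus strand (chr5:92348840-92349139), Ccl27a on the minus strand (chr4:41770163-41770462) and Ccl27b on the plus strand (chr4:42655001-42655300).
Cxcl2: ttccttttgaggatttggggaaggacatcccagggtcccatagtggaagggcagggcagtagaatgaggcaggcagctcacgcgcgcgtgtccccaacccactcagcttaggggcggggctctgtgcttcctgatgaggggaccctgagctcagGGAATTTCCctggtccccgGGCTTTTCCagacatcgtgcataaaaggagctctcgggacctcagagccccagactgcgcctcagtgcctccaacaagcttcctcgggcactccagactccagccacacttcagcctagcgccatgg
Cxcl9: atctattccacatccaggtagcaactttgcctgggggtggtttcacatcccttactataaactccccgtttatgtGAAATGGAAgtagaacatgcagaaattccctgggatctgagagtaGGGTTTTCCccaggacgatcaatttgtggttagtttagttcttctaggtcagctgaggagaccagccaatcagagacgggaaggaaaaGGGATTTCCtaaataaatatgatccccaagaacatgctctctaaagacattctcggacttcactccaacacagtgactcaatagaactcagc
Cxcl10: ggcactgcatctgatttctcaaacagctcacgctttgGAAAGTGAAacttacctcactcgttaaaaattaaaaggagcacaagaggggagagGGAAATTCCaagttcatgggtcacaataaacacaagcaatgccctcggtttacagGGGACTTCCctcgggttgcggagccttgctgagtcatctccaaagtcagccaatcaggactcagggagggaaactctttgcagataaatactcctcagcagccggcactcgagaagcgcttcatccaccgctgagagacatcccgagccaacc
Ccl27a: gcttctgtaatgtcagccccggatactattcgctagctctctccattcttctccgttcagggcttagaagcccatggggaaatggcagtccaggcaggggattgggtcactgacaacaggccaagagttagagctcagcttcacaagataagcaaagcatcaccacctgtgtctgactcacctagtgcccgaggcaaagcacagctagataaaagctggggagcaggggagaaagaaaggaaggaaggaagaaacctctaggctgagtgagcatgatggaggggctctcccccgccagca
Ccl27b: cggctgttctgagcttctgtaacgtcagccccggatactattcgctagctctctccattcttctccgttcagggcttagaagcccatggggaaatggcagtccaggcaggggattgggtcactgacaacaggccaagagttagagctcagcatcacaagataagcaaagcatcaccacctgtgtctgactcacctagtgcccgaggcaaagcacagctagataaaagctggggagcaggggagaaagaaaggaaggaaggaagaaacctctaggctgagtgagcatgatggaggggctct

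Counted with the start as 0, Cxcl2 holds the NF-kB type letters from positions -96 and -77. In Cxcl9 the ISRE core letters begin at -175 and the NF-kB type letters at -130 and -42. Cxcl10 has the same order, with the ISRE core letters at -213 and the NF-kB type letters at -158 and -103. RefSeq promoters were found for 38 of the 54 member symbols, and 28 of the members tested below had 34 promoters. Of these 34 promoters, 11 (32.4%) held GGNNNTTCC, against 18.5% of all 32851 promoters of the same length, and 6 (17.6%) held GAAANNGAA, against 8.56%. Another set of letters, TTCNNNGAA (the interferon-gamma activated site), was found in 1 of the 34 and in 8.30% of all promoters. The printed promoters of Ccl27a and Ccl27b were identical at 286 of 288 aligned bases. These matches describe the letters and were not tested against binding.

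Library totals ran from 9746937 to 11688979 reads in the AD group and from 10726845 to 13462434 reads in the HF + AD group. If every read is a separate molecule, a count of 0 allows up to 3 counts. That is up to 0.308 CPM in an AD library and up to 0.280 CPM in an HF + AD library, and covers counting error only. CPM are the reads of a gene scaled to a library of fixed size, and levels per mouse below use TMM-scaled totals. Where a molecule is read many times, as estimated next, a 0 allows more CPM than this, most of all in AD. The libraries differed in more than depth. The number of reads counted per sequenced molecule was estimated from how many genes with 10 to 200 expected reads had none. It was 20.4 ± 9.61 (SD, n = 5) in AD and 5.64 ± 1.27 (n = 7) in HF + AD, and the groups did not overlap. A two-sided permutation test gave p = 0.00126, the smallest p that 5 against 7 mice allow. Expected reads came from the other libraries of the same group, so the values are not independent and that p is only approximate. The estimate rests on genes without a read and is not separate from the detection counts below. AD mice 1 and 2 were highest, at 32.2 and 29.2. A low member's reads in an AD library therefore stand for few molecules. Results below are also given without AD mice 1 and 2 where that changes a call. Keratinocyte markers were abundant in every mouse, at 3189 to 5630 CPM summed over 6 genes in AD and 5611 to 9885 CPM in HF + AD, and of these Krt5 and Krt14 passed the test as higher while Krt1 was fitted higher and Krt10, Lor and Trp63 lower without passing (median log2 fold change of the list -0.08). Lists for dermal fibroblasts, Langerhans cells, mast cells and adipocytes had 0 genes called (edgeR; at an unadjusted p under 0.05, 1, 1, 1 and 0 genes), the hair shaft list had 2 of 6 called higher, and the skeletal muscle list 1 of 6 called lower.

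Detection was examined first. At least 1 read was counted for 50 of the 58 entries, and 27 members had reads in all 12 libraries, 20 of them ligands and 7 receptors. The 8 entries without a read were Ccl26, Cxcl17, Ccr8, Ccr1l1 and 4 repeated entries of Ccl19, Ccl21a and Ccl21b. An AD library held 35 to 43 members (39.0 ± 3.08, n = 5) and an HF + AD library 43 to 47 (45.0 ± 1.53, n = 7), a difference of 6.00 members (exact permutation p = 0.00253). Both classes differed, ligands with 28.6 ± 2.30 against 32.7 ± 1.25 (exact permutation p = 0.00631) and receptors with 10.4 ± 0.894 against 12.3 ± 1.11 (exact permutation p = 0.0253).

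More genes in all were detected in the HF + AD libraries as well. Of all entries, 56.3% to 64.7% had a read in an AD library and 66.7% to 71.6% in an HF + AD library, and these ranges did not overlap (exact permutation p = 0.00126). The direction was thus the same for the members and for all genes. The number of reads per molecule ran the other way, but it is estimated from genes without a read and is not a separate observation. Whether the members differed by more than all genes did was not tested. With at least 4 reads required, 37.0 ± 4.42 members were detected in AD and 42.3 ± 1.11 in HF + AD (exact permutation p = 0.0152).

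**Figure D1:**
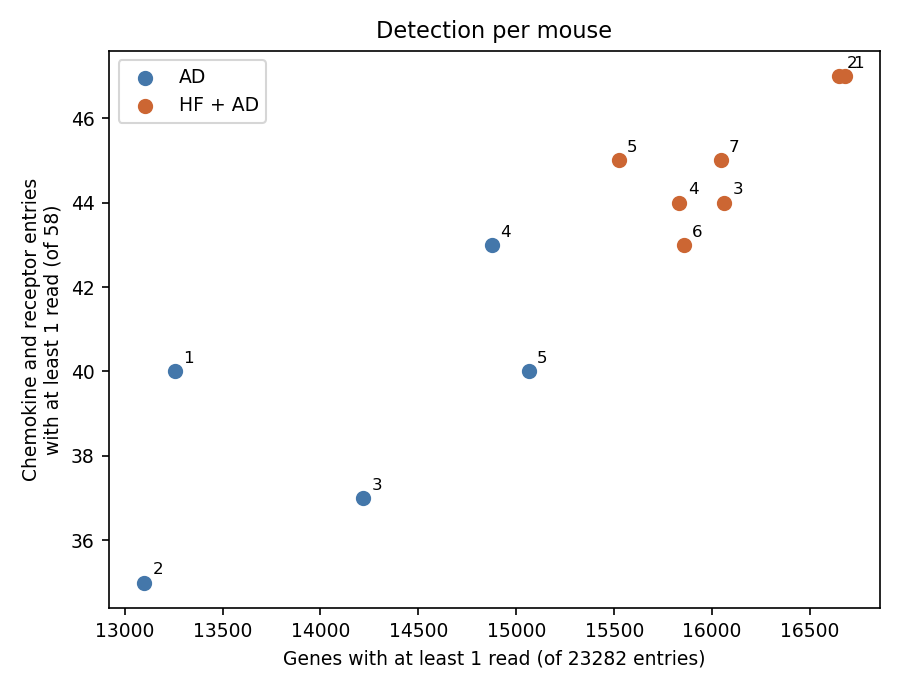
Members with at least 1 read (of 58 entries) against all genes with at least 1 read, 1 point per mouse, numbered within its group. The 7 HF + AD mice lie at 43 to 47 members and at 15522 genes or more, and the 5 AD mice at 35 to 43 members and at 15063 genes or fewer.

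No member had reads in AD libraries alone, and 3 had them in HF + AD libraries alone, all at low counts. Ccl1, a ligand of CCR8, had 26 reads in all, at most 13 in 1 mouse. Cxcr3, the receptor of Cxcl9 and Cxcl10, had 17 reads, 13 of them in HF + AD mouse 5. Cxcr1 had 1 read. The other 7 members with reads that did not pass the filter for the test were Ccl11, Ccl17, Ccl28, Cxcl15, Ccr3, Ccr6 and Ccr10. The reads of Ccr10, the receptor of CCL27, came mostly from 1 library, with 97 of 137 in AD mouse 2. Ccr3, the eotaxin receptor, had 108 reads in AD mouse 1, none in the other AD mice, and at most 13 in an HF + AD mouse. Ccl17 likewise had 81 reads in AD mouse 1 and at most 22 in any other mouse.

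The highest levels were those of ligands that skin cells make. Reads of this kit come from the 3′ end and do not scale with transcript length. Ranks of CPM between genes are thus free of a length effect, but not of overlaps or shared sequence, which are given for single genes below. Cxcl14, a ligand that normal epithelium makes constitutively, was the most abundant at a mean of 721 CPM and took 32.4% to 48.4% of the members' reads in a mouse. Ccl27a followed at 445 CPM, and then Cxcl9 at 95.3, Ccl27b at 81.9 and Cxcl12 at 64.4 CPM. Among receptors, Cxcr5 (16.1 CPM) and Ccr2 (12.8 CPM) had the highest means and were the only receptors among the 15 members with the highest means. The members' levels summed to 1437 to 2140 CPM in an AD mouse and 1381 to 2402 CPM in an HF + AD mouse, ranges that overlap.

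**Figure D2:**
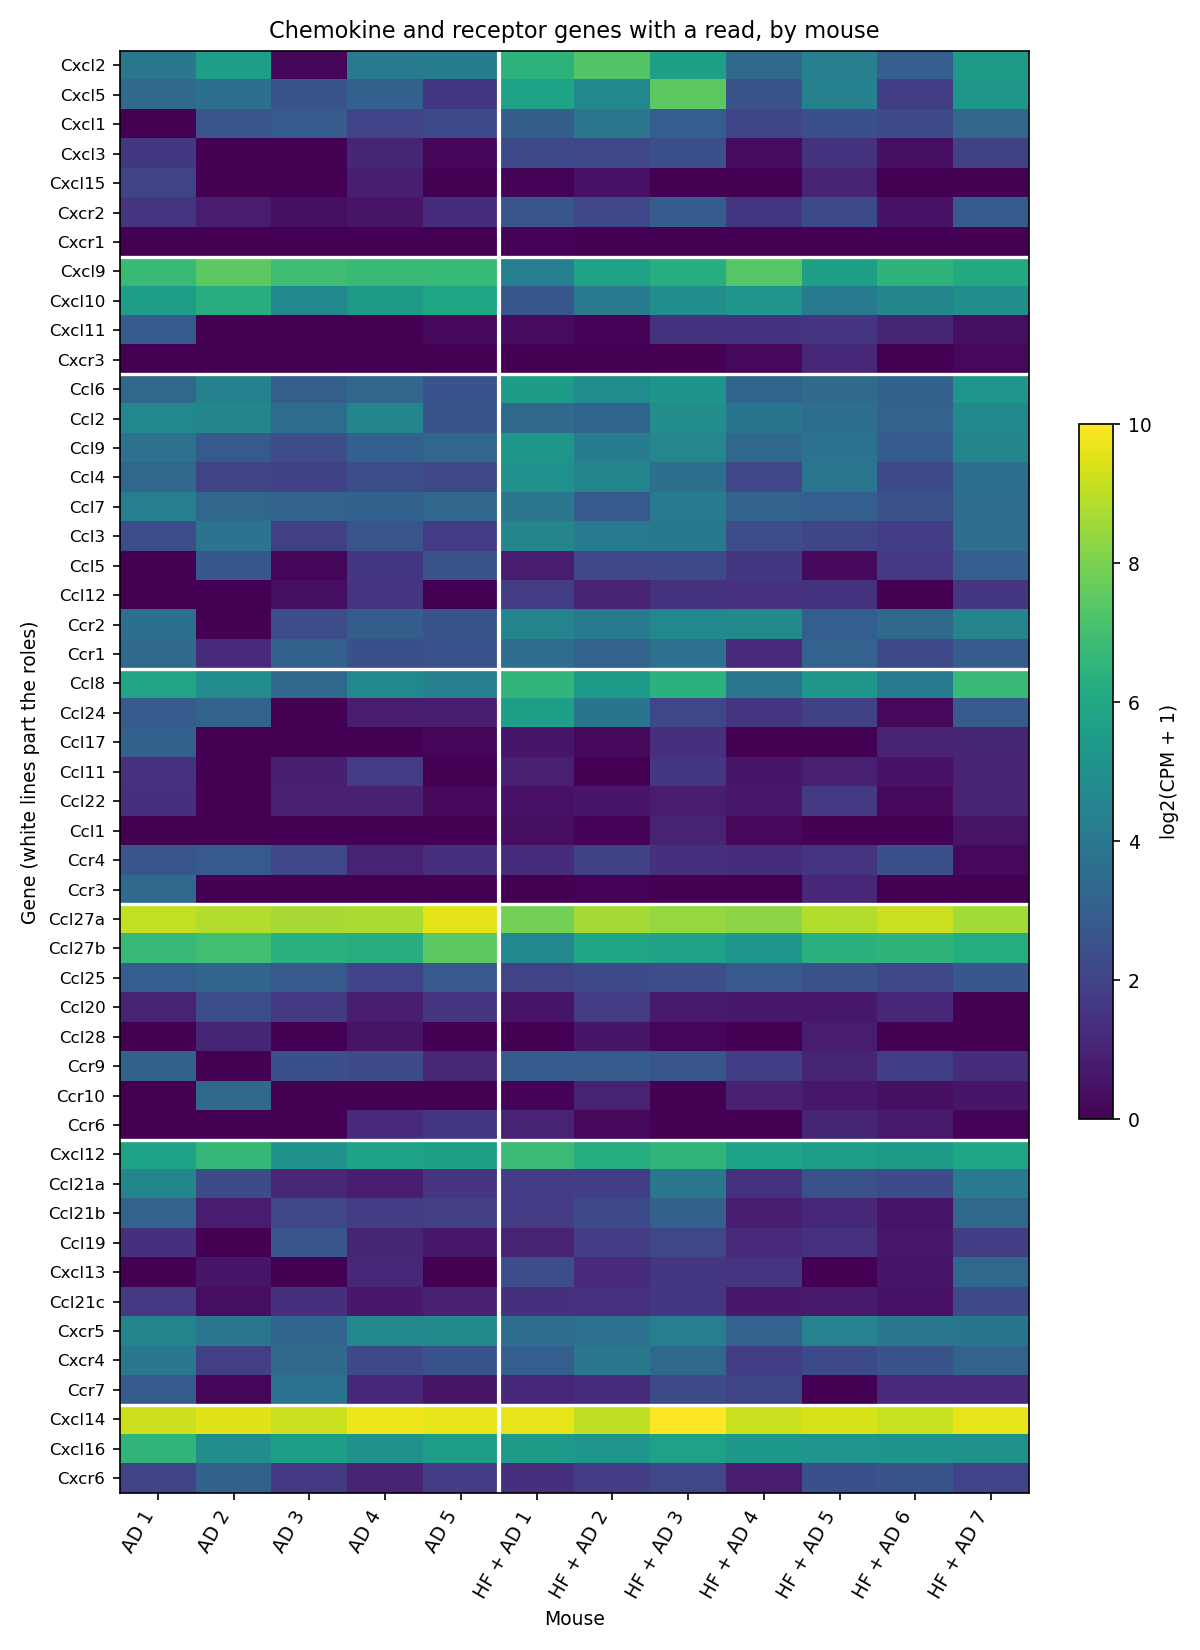
Level of 49 of the 50 members with a read in each of the 12 mice, as log2(CPM + 1) in colour, with genes in rows parted by role and mice in columns. Cxcl14 and Ccl27a are the brightest rows in every mouse, and the rows of Cxcl2 and Cxcl5 differ in brightness among the HF + AD mice.

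HF + AD was then compared with AD. In the fit across all 14163 genes that passed the filter, 40 of the 58 members were tested, 30 ligands and 10 receptors, and 1 was called at an adjusted p under 0.05 (edgeR, quasi-likelihood test, Benjamini-Hochberg adjustment). That member was Cxcl5, which was higher in HF + AD. Of all genes tested, 4.43% were called higher and 4.77% lower, 9.20% in all. DESeq2's Wald test called 8 members, Cxcl5, Cxcr2, Ccl4, Ccl6, Ccl9 and Ccr2 as higher and Cxcl10 and Ccl27b as lower, of 1945 genes called in all. At an unadjusted p under 0.05, 8 members were higher, against 12.3% of all genes, and 3 were lower, against 12.8% of all genes. The median log2 fold change was 0.13 over the 40 members and 0.02 over all genes, with 25 members higher and 15 lower. The values of the groups did not overlap for 0 of the 40 members, against 5.45% of all genes. Each member fold change below is log2 of HF + AD over AD, with its standard error (SE) from that fit. Of the 40 members, 23 were also compared on log2(CPM + 1) with an exact permutation test, two-sided. Those exact p values are not adjusted, and 6 of the 23 were under 0.05. The exact test was not run over all genes, so this count has no background share and is not a result about the members. In edgeR, 12.3% of all genes were higher and 12.8% lower at an unadjusted p under 0.05.

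**Figure D3:**
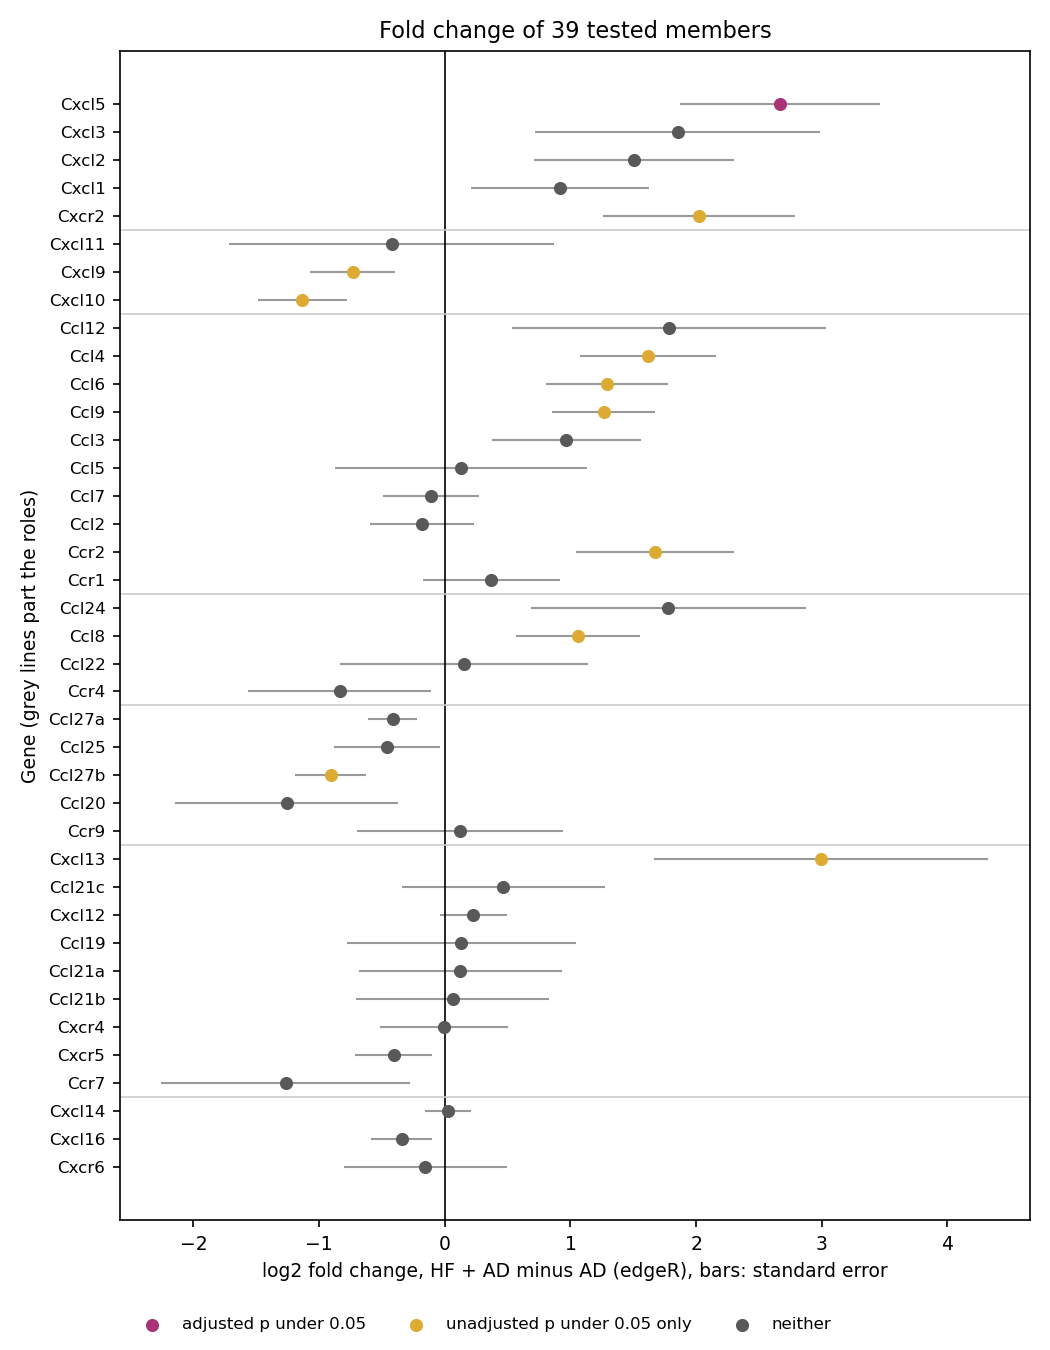
Fold change of 39 of the 40 tested members (points, log2 scale, HF + AD minus AD) with the standard error (bars), ordered by role and coloured by p. The points of the 5 neutrophil-attracting genes tested lie right of 0 and those of the 3 interferon-inducible genes tested left of it (Cxcl11 changed sign without AD mouse 1), and Cxcl5 alone has an adjusted p under 0.05.

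Of the 7 neutrophil-attracting CXC entries, ligands of CXCR2 and receptors, 5 were tested. All 5 had a higher fitted level in HF + AD, with a median log2 fold change of 1.85, and 1 passed the adjusted test. Cxcr1 and Cxcl15 did not pass the filter. Cxcl15, with 60 reads in all, ran the other way (mean 0.794 CPM in AD and 0.200 CPM in HF + AD). Cxcl3 and Cxcr2 had medians of 0.0904 and 0.724 CPM in AD and 2.78 and 3.74 CPM in HF + AD. The filter could thus keep them for their HF + AD reads, so the shared sign is not separate from the filter. Cxcl5 (chr5:90759360-90761624) encodes a CXCR2 ligand released by epithelial cells. It stood at 9.97, 11.7, 4.84, 7.69 and 2.08 CPM in AD mice 1 to 5 and at a lowest of 2.61, a median of 24.2 and a highest of 178 CPM in the HF + AD mice. HF + AD mice 1, 2, 3, 5 and 7 were above every AD mouse, and mice 4 and 6 were within the AD range. The log2 fold change was 2.67 (SE 0.80, adjusted p = 0.0450), and the exact permutation test gave p = 0.0909. HF + AD mouse 3 alone carried much of the size, since without it the log2 fold change was 1.73 (edgeR adjusted p = 0.102). The call was also lost with each AD mouse left out in turn and with HF + AD mouse 1, 2 or 7 left out, and the edgeR adjusted p was 0.0682 without AD mice 1 and 2.

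The other neutrophil-attracting genes tested had the same sign and did not pass the test. Cxcl2, an immediate-early ligand of macrophages and other cells, stood at 15.1, 46.3, 0.101, 16.1 and 17.2 CPM in the AD mice and between 6.85 and 159 CPM (median 42.5) in the HF + AD mice. AD mouse 3 held 1 read of Cxcl2, while HF + AD mice 1, 2 and 3 were above every AD mouse. The log2 fold change was 1.51 (SE 0.79, adjusted p = 0.252; exact permutation p = 0.183), and 2.15 without AD mouse 2. Cxcr2, the neutrophil receptor for these ligands, was low in both groups, at 1.90, 0.724, 0.303, 0.442 and 1.45 CPM in AD and between 0.408 and 6.52 CPM (median 3.74) in HF + AD. All HF + AD mice but mouse 6 were above every AD mouse, with a log2 fold change of 2.02 (SE 0.76, adjusted p = 0.106; exact permutation p = 0.0227). Reads of Cxcr2 numbered 3 to 21 in an AD library and 5 to 90 in an HF + AD library. At the reads per molecule estimated above, those AD reads stand for few molecules. Cxcl1 (0.92, SE 0.71) and Cxcl3 (1.85, SE 1.13), 2 further CXCR2 ligands, had adjusted p values of 0.460 and 0.334 in edgeR, and without AD mouse 1 the value of Cxcl3 was 2.98.

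Neutrophil markers gave no call. Of 6 neutrophil markers in the files, 3 were tested and 0 were called (edgeR; 2 at an unadjusted p under 0.05). Their summed level was 198 to 3696 CPM in AD and 93.6 to 464 CPM in HF + AD, with the 3696 CPM in AD mouse 1. Most of that sum was S100a8 and S100a9, which inflamed keratinocytes also make, and these were the 2 genes, both fitted lower (log2 fold changes -1.53 and -1.57, edgeR adjusted p = 0.181 and 0.108). AD mouse 1 held 2403 CPM of S100a8, whose median was 99.3 CPM in AD and 213 CPM in HF + AD. Retnlg, a neutrophil granule gene and the remaining marker tested, was fitted higher (2.37, SE 1.26, edgeR adjusted p = 0.256). Csf3r, Mpo and Elane did not pass the filter and were at or below 2.31, 0.571 and 0.956 CPM in every mouse. The median of Csf3r was 0.362 CPM in AD and 0.852 CPM in HF + AD, and those of Mpo and Elane were 0 in both groups. The part of the neutrophil markers in the result was not tested.

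The interferon-inducible CXC ligands had fitted values of the opposite sign, which for Cxcl11 rested on AD mouse 1. Cxcl9, Cxcl10 and Cxcl11, all ligands of CXCR3 induced by interferons, had fitted log2 fold changes of -0.73, -1.13 and -0.42, and none passed the adjusted test. Cxcl10 stood at 47.2, 73.9, 24.2, 42.7 and 59.6 CPM in the AD mice and between 5.54 and 37.0 CPM (median 22.8) in the HF + AD mice, of which 4 of 7 were below every AD mouse. Its difference came close to the threshold (SE 0.35, edgeR adjusted p = 0.0534; exact permutation p = 0.0177). Cxcl9 stood at 105, 180, 120, 106 and 110 CPM in AD and between 18.9 and 164 CPM (median 67.2) in HF + AD. All HF + AD mice but mouse 4 were below every AD mouse, and HF + AD mouse 1 was the lowest for both ligands (SE 0.34, edgeR adjusted p = 0.185; exact permutation p = 0.0467). With HF + AD mouse 4 left out, Cxcl9 was called at an adjusted p of 0.0425. Cxcl11 was near the floor, with 3 AD mice at 0 reads and 6.53 CPM in AD mouse 1. Its fitted sign changed in 5 of 16 alternatives, and its log2 fold change was 4.14 without AD mouse 1 (edgeR adjusted p = 0.880 with all mice and 0.0708 without that mouse).

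The sum of these 3 ligands was 144 to 254 CPM in AD and 24.6 to 203 CPM in HF + AD. Their receptor Cxcr3 had no read in AD and 17 reads in HF + AD. T cell markers were likewise low, at 7.34 to 24.8 CPM summed over 7 genes in AD and 6.44 to 14.3 CPM in HF + AD. Art3 overlaps both Cxcl10 and Cxcl11 in the annotation, and the strand setting of the counting was not stated, so that their reads could include some of it.

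**Figure D4:**
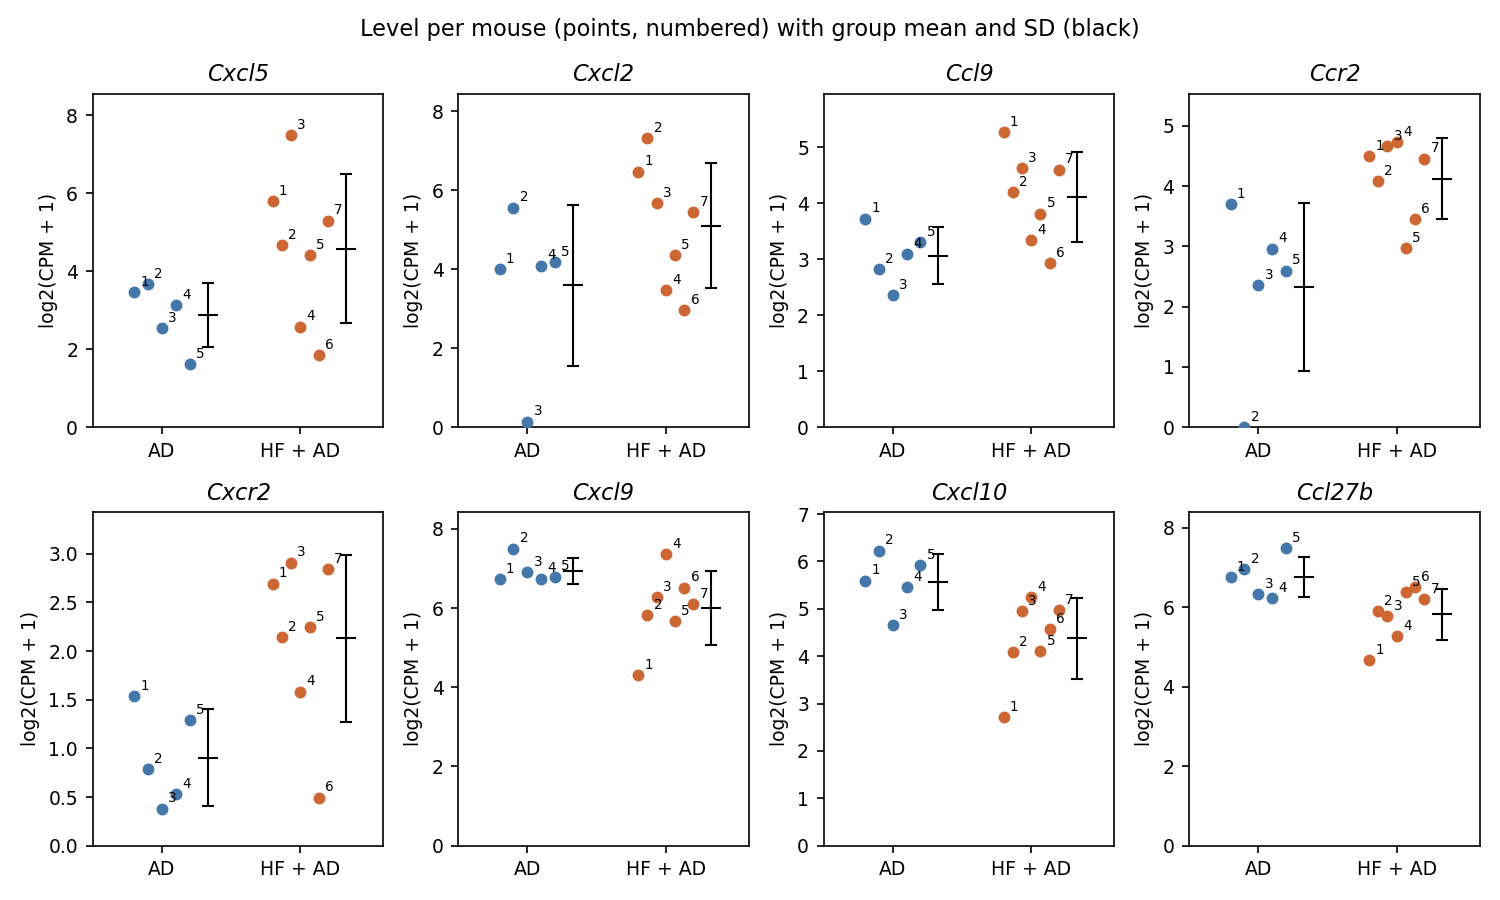
Level of 8 members in each mouse as log2(CPM + 1), with points numbered by mouse and the group mean and SD in black; each panel has its own axis from 0. Cxcl5, Cxcl2, Ccl9, Ccr2 and Cxcr2 have higher means in HF + AD and Cxcl9, Cxcl10 and Ccl27b lower ones, and in every panel at least 1 mouse of HF + AD lies within the AD range.

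Of the 11 monocyte and macrophage CC genes, 9 had a higher fitted level in HF + AD and 4 of these an unadjusted p under 0.05 (Ccl4, Ccl6, Ccl9 and Ccr2), with a median log2 fold change of 0.97. None passed the adjusted test. Ccr2, the receptor that brings monocytes out of blood into tissue, stood at 11.97, 0, 4.14, 6.81 and 5.06 CPM in the AD mice and between 6.83 and 25.6 CPM (median 21.0) in the HF + AD mice. HF + AD mice 1, 2, 3, 4 and 7 were above every AD mouse. The log2 fold change was 1.67 (SE 0.63, edgeR adjusted p = 0.104), and Ccr2 had the smallest exact permutation p of the 23 members so tested, at 0.00631. Without AD mice 1 and 2, Ccr2 was called at an adjusted p of 0.0284 (edgeR), and it was also called when counts were divided by the reads per molecule (adjusted p = 0.0199).

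Among the ligands, Ccl9 and Ccl6, which act on CCR1 and are made by macrophages and other myeloid cells, had similar fold changes. Ccl9 stood at 12.2, 6.11, 4.14, 7.51 and 8.86 CPM in AD and between 6.61 and 37.7 CPM (median 17.4) in HF + AD, with HF + AD mice 1, 2, 3, 5 and 7 above every AD mouse. Its log2 fold change was 1.27 (SE 0.41, edgeR adjusted p = 0.0612; exact permutation p = 0.0328). Ccl6 stood at 9.43, 20.2, 7.06, 8.75 and 4.70 CPM in AD and between 7.58 and 45.0 CPM (median 28.2) in HF + AD. HF + AD mice 1, 2, 3 and 7 were above every AD mouse for Ccl6 (1.29, SE 0.49, edgeR adjusted p = 0.104; exact permutation p = 0.0795). Ccl4 and Ccl3, the macrophage inflammatory proteins, had log2 fold changes of 1.62 (SE 0.54) and 0.97 (SE 0.59), with edgeR adjusted p values of 0.0705 and 0.333, and Ccl3 was at 1.57 without AD mouse 2.

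Ligands of CCR2 itself varied in sign. Ccl2, the main CCR2 ligand, stood at 24.4, 22.9, 10.7, 22.4 and 5.06 CPM in AD and between 7.91 and 29.8 CPM (median 11.2) in HF + AD, ranges that overlapped (-0.18, SE 0.41, edgeR adjusted p = 0.834; exact permutation p = 0.754). Ccl7, another CCR2 ligand of the same gene cluster on chromosome 11, gave -0.11 (SE 0.38). Without AD mice 1 and 2, the values of Ccl2 and Ccl7 were 0.25 and 0.23. Ccl12, a further CCR2 ligand, was low, with no read in 3 AD mice, and its value of 1.78 (SE 1.25, edgeR adjusted p = 0.408) became 4.19 without AD mouse 4 and 1.07 without AD mice 1 and 2. Ccl5, a T cell product, gave 0.13 (SE 1.00). The difference between the fold changes of Ccr2 and of its ligands was not tested.

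Ccr1 differed by less than its error. This receptor of Ccl6 and Ccl9 lay between 1.35 and 10.1 CPM in AD and between 1.30 and 12.5 CPM in HF + AD (0.37, SE 0.55, edgeR adjusted p = 0.729; exact permutation p = 0.548). Of the macrophage and dendritic cell markers, 9 were tested and 0 called (edgeR; 1 at an unadjusted p under 0.05). Their summed level was 137 to 476 CPM in AD and 166 to 458 CPM in HF + AD, and their part in the results was not tested. The list was mixed, with 6 fitted higher and 3 lower. Cd163 of tissue macrophages had the smallest p of the list (1.77, SE 0.84, edgeR adjusted p = 0.199). Adgre1 (-0.12), H2-Ab1 (-0.08) and Cd74 (-0.06) were the 3 fitted lower.

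In the eosinophil and type 2 group, 4 of 10 entries were tested and 0 called (edgeR; Ccl8 at an unadjusted p under 0.05), with 3 fitted higher and 1 lower. Ccl8, which in mice draws type 2 T cells through CCR8, stood at 55.6, 27.4, 9.18, 24.6 and 19.4 CPM in AD and between 14.0 and 108 CPM (median 42.3) in HF + AD. HF + AD mice 1, 3 and 7 were above every AD mouse (1.06, SE 0.49, edgeR adjusted p = 0.191; exact permutation p = 0.173), and the value was 1.68 without AD mice 1 and 2. Ccl24, an eotaxin made by macrophages, was above every AD mouse in HF + AD mice 1 and 2, with 49.7 CPM in HF + AD mouse 1 (1.78, SE 1.09, edgeR adjusted p = 0.337). The value was 0.54 without HF + AD mouse 1, 2.46 without AD mouse 2 and 4.40 without AD mice 1 and 2.

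Ccr4, the receptor of skin-homing and type 2 T cells, lay between 0.972 and 6.11 CPM in AD and between 0.150 and 4.40 CPM in HF + AD (-0.84, SE 0.73, edgeR adjusted p = 0.519; exact permutation p = 0.218), and its value was -0.05 without AD mice 1 and 2. Ccl22, a CCR4 ligand of dendritic cells, was at or below 2.25 CPM in every mouse (0.15, SE 0.98). Its fitted sign changed in 2 of 18 alternatives. Ccl11, the eotaxin of skin fibroblasts, had at most 27 reads in AD libraries and at most 29 in HF + AD libraries, and Ccr8, the receptor of Ccl8, had none. The eosinophil granule genes Prg2 and Epx had no read in any mouse.

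The epithelial CC ligands were fitted lower in HF + AD, all 4 of those tested, and none was called (edgeR; Ccl27b at an unadjusted p under 0.05). Ccl27b stood at 107, 123, 79.6, 74.1 and 179 CPM in AD and between 24.6 and 90.0 CPM (median 58.8) in HF + AD, with HF + AD mice 1, 2, 3, 4 and 7 below every AD mouse. Its log2 fold change of -0.91 (SE 0.28, edgeR adjusted p = 0.0515; exact permutation p = 0.0215) was just short of the threshold, and it was called in 9 of 22 alternatives. Ccl27a stood at 537, 457, 418, 428 and 764 CPM in AD and between 242 and 587 CPM (median 392) in HF + AD. HF + AD mice 1, 2, 3, 4 and 7 were below every AD mouse here too, with a smaller log2 fold change of -0.42 (SE 0.20, edgeR adjusted p = 0.203; exact permutation p = 0.0972).

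The copies cannot be counted apart with confidence. Of the 50-base windows in the Ccl27b transcript, 61.4% occurred also in Ccl27a transcripts. In the other direction, none of the windows at the end of the longest Ccl27a transcript occurred in Ccl27b. Ccl27a also overlaps Il11ra1 in the annotation. Values of Ccl27a and Ccl27b are therefore uncertain as single genes. Ccl20, the ligand of CCR6 released by stressed keratinocytes, was at or below 4.24 CPM in every mouse (-1.26, SE 0.89), and Ccl25, a ligand of CCR9, gave -0.46 (SE 0.42, edgeR adjusted p = 0.546). Ccr9 lay between 0 and 7.71 CPM in AD and between 1.03 and 6.47 CPM in HF + AD (0.12, SE 0.82, edgeR adjusted p = 0.952; exact permutation p = 0.619), and it overlaps other genes on both strands. Krt5 and Krt14 of basal keratinocytes were called higher in the same comparison (edgeR adjusted p = 0.00679 and 0.0248), while Krt10 (-0.42), Lor (-0.29) and Trp63 (-0.29) of the same list were fitted lower, as the Ccl27 copies were, and did not pass. The part of epidermal makeup was not tested.

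For the lymphoid homing genes, 9 were tested, 6 fitted higher and 3 lower, and 0 were called (edgeR; Cxcl13 at an unadjusted p under 0.05). Cxcl12, the stromal ligand of CXCR4, was the most abundant, at 54.7, 99.3, 34.3, 54.3 and 50.3 CPM in AD and between 42.6 and 112 CPM (median 57.99) in HF + AD (0.23, SE 0.27, edgeR adjusted p = 0.656; exact permutation p = 0.466). Cxcr4 lay between 2.69 and 14.96 CPM in AD and between 2.61 and 15.1 CPM in HF + AD, and its log2 fold change was close to 0 (SE 0.51, edgeR adjusted p = 0.998; exact permutation p = 0.904), with a sign that changed in 13 of 22 alternatives. Cxcl13, the B cell attractant, had no read in 3 AD mice and 0 to 9.32 CPM in HF + AD, where 5 of 7 mice were above every AD mouse. Its log2 fold change of 2.99 (SE 1.33) was the largest of the members, with an edgeR adjusted p of 0.169. Cxcl13 had at most 13 reads in an AD library, which stand for few molecules. With AD mouse 4 left out it was 4.34, and with HF + AD mouse 7 left out 2.24.

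Cxcr5, the receptor of CXCL13, lay between 8.48 and 24.8 CPM in AD and between 7.82 and 20.5 CPM in HF + AD (-0.41, SE 0.31, edgeR adjusted p = 0.451; exact permutation p = 0.283). It overlaps Bcl9l in the annotation, so that its place as the highest receptor is uncertain. Ccr7, which guides dendritic cells and naive T cells to lymph nodes, lay between 0.103 and 13.0 CPM in AD and between 0 and 3.84 CPM in HF + AD (-1.27, SE 0.99, edgeR adjusted p = 0.465; exact permutation p = 0.577). AD mouse 3 held the 13.0 CPM, and without it the value was -0.23. Its ligands Ccl19, Ccl21a, Ccl21b and Ccl21c gave 0.13 (SE 0.91), 0.12 (SE 0.81), 0.06 (SE 0.77) and 0.47 (SE 0.81). The signs of Ccl19, Ccl21a and Ccl21b changed in 4, 5 and 7 of 20 alternatives. Without AD mouse 1, which held 22.7 CPM of Ccl21a, the value of Ccl21a was 1.83, and without AD mouse 3 that of Ccl19 was 1.20. Ccl21a and Ccl21b share sequence, with 71.7% of the Ccl21b windows found in Ccl21a and 12.9% of the Ccl21a windows found in Ccl21b. They are uncertain as single genes, and Ccl21c had no matched transcript and was not compared.

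The 3 remaining CXC genes were not called (edgeR, 0 at an unadjusted p under 0.05). Cxcl14 stood at 609, 732, 581, 860 and 786 CPM in AD and between 527 and 1158 CPM (median 665) in HF + AD, with a log2 fold change of 0.03 (SE 0.18, edgeR adjusted p = 0.954; exact permutation p = 0.967). Its SE was the smallest of the 40 members. Cxcl16, the ligand of CXCR6 that also acts as a scavenger receptor, stood at 93.1, 29.8, 47.0, 32.8 and 45.9 CPM in AD and between 32.9 and 51.7 CPM (median 37.1) in HF + AD (-0.34, SE 0.24, edgeR adjusted p = 0.411; exact permutation p = 0.452). Cxcr6 of tissue-resident T cells lay between 0.972 and 7.66 CPM in AD and between 0.696 and 4.97 CPM in HF + AD (-0.15, SE 0.65, edgeR adjusted p = 0.917; exact permutation p = 0.910), and its value was 0.43 without AD mouse 2.

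The HF + AD mice differed widely among themselves. Of the 40 tested members, 17, 13, 15 and 14 were above every AD mouse in HF + AD mice 1, 2, 3 and 7, and 4, 5 and 0 in mice 4, 5 and 6. The same share over all genes was not counted, so this split cannot be read as particular to the members. Genes with a read numbered 16677, 16647, 16060 and 16044 in mice 1, 2, 3 and 7 and 15833, 15522 and 15854 in mice 4, 5 and 6. The CXCR2 ligands summed to 152, 202, 239 and 92.5 CPM in mice 1, 2, 3 and 7 and to 18.5, 46.9 and 13.6 CPM in mice 4, 5 and 6. Of 5 endothelial markers tested, Cdh5 and Kdr were called higher (edgeR). Pecam1 and Lyve1 were fitted higher (log2 fold changes 0.47 and 0.23) and Tek lower (-0.36), without passing. The endothelial markers had their highest sums in the same 4 mice, at 88.6, 67.5, 93.0 and 84.4 CPM. Their sums were 41.6, 51.9 and 42.1 CPM in mice 4, 5 and 6 and 32.1 to 61.6 CPM in AD. Macrophage and dendritic cell markers summed to 265, 247, 381 and 458 CPM in mice 1, 2, 3 and 7, to 166, 201 and 216 CPM in mice 4, 5 and 6, and to 137 to 476 CPM in AD. In the same order of HF + AD mice, adipocyte markers summed to 247, 179, 281 and 449 CPM and to 76.2, 154 and 63.6 CPM. Other lists did not follow the split, which was drawn from the members' own values. Mast cell markers summed to 103, 125, 285 and 293 CPM and to 108, 177 and 119 CPM. Neutrophil markers were at 450 CPM in mouse 5, and fibroblast markers were lowest in mouse 1 (3292 CPM). Reads per molecule were 4.07, 3.86, 5.80 and 5.64 in mice 1, 2, 3 and 7 and 6.31, 7.29 and 6.53 in mice 4, 5 and 6. The part of these in the members' values was not tested.

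Of the other genes of the pathway, a list of 39 was in the files and 35 were tested. Of these, 3 passed the adjusted test as higher and 1 as lower (edgeR). Of all genes tested, 4.43% were called higher and 4.77% lower, 9.20% in all. Whether the pathway genes differ from these shares was not tested. Ackr1 is the atypical receptor with which venular endothelium binds and presents chemokines. It was without a read in the AD libraries and at 0 to 3.31 CPM (median 1.54) in the HF + AD mice (edgeR adjusted p = 0.0351). With many reads per molecule in AD, the AD zeros of Ackr1 set only a loose limit. Gnai2 is the G protein subunit through which chemokine receptors signal in leukocytes. It lay between 62.4 and 88.1 CPM in AD and between 99.7 and 236 CPM in HF + AD (0.98, SE 0.20, edgeR adjusted p = 0.00960). The groups did not overlap for Gnai2, as for 5.45% of all genes tested. Ptk2b, a calcium-activated kinase downstream of these receptors, lay between 6.83 and 16.6 CPM in AD and between 18.5 and 34.6 CPM in HF + AD (1.02, SE 0.27, adjusted p = 0.0265).

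Tiam1, an activator of Rac, was lower, between 363 and 597 CPM in AD and between 203 and 321 CPM in HF + AD (-0.77, SE 0.15, edgeR adjusted p = 0.00822). Pf4, a platelet and macrophage CXC ligand outside the symbol rule, gave 2.19 (SE 0.77, edgeR adjusted p = 0.0815). Ackr4, the keratinocyte scavenger of CCL19, CCL21 and CCL25, gave -0.74 (SE 0.23, edgeR adjusted p = 0.0545). Ackr3, the scavenger of CXCL12, lay between 5.59 and 24.6 CPM in AD and between 15.6 and 25.1 CPM in HF + AD (0.46, SE 0.30, edgeR adjusted p = 0.363). The Rac subunit of leukocytes, Rac2, gave 0.95 (SE 0.69) and the widely expressed Rac1 -0.16 (SE 0.13), with edgeR adjusted p values of 0.431 and 0.478.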

How the data were processed

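Dorsal skin of 12 mice, 5 in the AD and 7 in the HF + AD group, was profiled with the QuantSeq 3′ mRNA-Seq kit on a NextSeq 500, with 1 library per mouse, and groups were taken from the labels. The values the authors deposited are raw read counts, 1 row for each gene symbol. The submitters' processing notes name Bowtie2, bedtools and mm10. The strand setting, annotation and treatment of duplicate reads are not given in the sources used here, and the paper states that data points outside a measurement confidence interval were left out, without saying which. Antisense or overlapping genes and near-identical copies may thus share reads. Beside the overlaps named above, Cxcl16, Ccl2, Ccl6, Ccl19, Ccl21a, Ccl25, Cxcr6 and Ccr10, among others, overlap another gene in the annotation. No molecular identifiers are described.

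Counts were compared with edgeR 4.0.16 in R 4.3.3 (TMM, filterByExpr, quasi-likelihood fit on group alone, p values of 14163 genes adjusted by Benjamini-Hochberg, threshold 0.05), without gene-list tests. Totals were 9746937 to 13462434 per library. Single genes were compared on log2(CPM + 1) with TMM-scaled totals by exact permutation, two-sided, over all 792 assignments of 12 mice to 5 and 7. Nothing states that the mice were housed or processed independently, so that p values measure the spread between these libraries. Reads per molecule were estimated per library from how many genes with 10 to 200 expected reads had no read, with all molecules taken as equally copied. Expected reads were averaged over the other libraries of the same group. On simulated counts of 14041 genes with the sizes of these libraries, 195 of 195 changed genes that passed the filter and 11 unchanged genes were called. Every simulated gene had the same spread and no molecule was read repeatedly, so the recovery does not carry over to these members. The median error of the log2 fold change was 0.127 for those changed genes. The SE of the 40 members ran from 0.18 (Cxcl14) to 1.33 (Cxcl13). How often a changed member would be called at its own spread was not tested.

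Members, roles, pathway and marker lists and tests were chosen with earlier results of these data known. In the counts, 1 tested member is included that is not reported here. Described in full are the other members called at an adjusted p under 0.05, the 15 with the highest mean CPM and each receptor tested. Markers and pathway genes named with values were chosen after their values were seen. Alternatives were DESeq2 size factors and Wald test (DESeq2 1.42.0), library totals, other filters, limma-trend and voom weights (limma 3.58.1), counts divided by reads per molecule, a replicate block, leaving out each mouse, a pseudocount of 0.1 and a rank statistic. Leaving out AD mice 1 and 2 together was added after seeing the data. Transcripts and positions came from GENCODE M21 (GRCm38), with which Ccl21c could not be matched by name. Python 3.11.15, NumPy 2.4.6, SciPy 1.17.1, pandas 2.3.3 and matplotlib 3.10.9 were used.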

Additional observations from a re-analysis of the deposited data

Results flagged for a closer look

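In 2 of 46 groups of values examined (23 members in 2 groups each), a mouse stood apart from the rest by Dixon's 95% criterion, and chance alone gives about 1 such group in 20. Cxcl2 in AD mouse 3 was the lowest of the AD group, at 0.14 on the log2(CPM + 1) scale from 1 read, with the next AD mouse at 4.01. Cxcl9 in AD mouse 2 was the highest of the AD group, at 7.50 on that scale from 1738 reads, with the next AD mouse at 6.92.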

How the results depend on the processing

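Beside the 1 member called in the main fit (Cxcl5), the count of called members was 2 without a filter on low counts, 5 with at least 10 counts in every library, where 19 members were tested, 8 by DESeq2's Wald test, 0 by limma voom with sample quality weights (4 at an unadjusted p under 0.05) and 3 with counts divided by reads per molecule, where Cxcl5 was not among them (adjusted p = 0.0550). In the same order, 1217 of 18605, 1552 of 10814, 1945 of 14163, 766 of 14163 and 1430 of 11070 genes in all were called. It was 1 under DESeq2 size factors and library totals (Cxcl5), under limma-trend (Ccl27b) and without AD mice 1 and 2 (Ccr2). With 1 mouse left out at a time it ranged from 0 to 4, and it was 0 when AD mice 2 or 5 were left out, and likewise for HF + AD mice 1, 2, 3 or 7. With the replicate block 1 member was called (Ccl27b, adjusted p = 0.0359), Cxcl5 had an adjusted p of 0.115, and 192 of all genes were called against 1303. The mice share only a number there, since correlations of same-numbered deviations lay between -0.106 and 0.0724 and 1 of 5 AD mice correlated best with its own number. Over 22 alternatives the adjusted p of Cxcl5 ran from 0.0202 to 0.497, and it was under 0.05 in 8, while its direction held in all of them. Of the 40 members, 9 were called in at least 1 alternative, 27 kept their direction in every alternative that tested them and 13 did not. Counts of detected members differed between the groups under each alternative run, by 5 to 7 members. The many reads per molecule in AD libraries limit the precision of members at a few CPM.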
